A study of Mus musculus with 64 samples.

Results

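The genes described here are the splicing factors and heterogeneous nuclear ribonucleoproteins (hnRNPs) whose symbols begin with Srsf, Hnrnp, Snrp, Sf3a, Sf3b, U2af or Prpf, and 57 of the 5647 genes in the table met that rule. By name they were 16 Hnrnp, 11 Snrp, 10 Prpf, 9 Srsf, 6 Sf3b, 3 U2af and 2 Sf3a genes. Genes of the same machinery under other symbols, such as Snrnp70, were not counted as members and are given as related genes. All 57 members passed the authors' filter on low values, since genes removed by it are not in the table.

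Splicing removes introns from pre-mRNA. The U1 particle recognises the start of an intron, the U2 particle with SF3A, SF3B and U2AF recognises its end and branch site, and the U4/U6.U5 tri-snRNP then joins to build the catalytic spliceosome. SR proteins, encoded by the Srsf genes, mostly promote the use of the exons they bind, whereas many hnRNPs coat pre-mRNA and compete with them. Many SR and hnRNP genes regulate their own transcripts through exons whose inclusion leads to nonsense-mediated decay.

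Microglia, the resident macrophages of the brain, were sorted as live CD11b+ CD45low cells from brains of single C57BL/6J wild-type mice, and the RNA of each mouse gave 1 library. LPS, a bacterial endotoxin that activates microglia, was injected at 0.5 mg/kg 2 hours before collection into females of 3 months (n = 3), 14 months (n = 5) and 24 months (n = 3). PBS-treated females had an age of 3 months (n = 4), 6 months (n = 2), 9 months (n = 3), 12 months (n = 4), 14 months (n = 5), 16 months (n = 5) or 24 months (n = 3), and PBS-treated males of 3 months (n = 4), 6 months (n = 4), 9 months (n = 4), 12 months (n = 2), 16 months (n = 4), 19 months (n = 5) or 24 months (n = 4). The comparisons ask which splicing genes differ after LPS at each of 3 ages, and at each age from 3 months within a sex.

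Values are adjusted FPKM, that is fragments scaled to transcript length and library size, which the authors adjusted for batch and rounded, so that levels of genes can be compared per length but carry no known depth. The 64 libraries summed to between 408457 and 554459, and the mean correlation of a library with the others of its group lay between 0.881 and 0.974. All 8 microglial markers on the list were measured, and none of 6 neuronal markers was in the table. Neutrophil marker sums differed between groups, at 2011 to 3617 in LPS-treated and 6853 to 18512 in PBS-treated 3-month females, without overlap. Microglial marker sums were also apart in that comparison, at 16460 to 19489 after LPS and 21782 to 23399 after PBS. The part of either in the results below was not tested.

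The 57 genes were moderately to highly expressed. Their median level over all libraries was 34.2 adjusted FPKM, against 26.2 for the rest of the table. Hnrnpk, a poly(C)-binding hnRNP, was the highest member with a mean of 351 and a range of 236 to 450. Hnrnpf followed at 220.0, and Srsf2, the SR protein SC35, at 211. Among the other families Snrpb, an Sm core protein of the U1, U2, U4 and U5 particles, led the Snrp genes at 179. Sf3b1, the SF3B subunit at the branch site, averaged 165 and varied least of all members within groups, with an SD of 0.14 on the log2 scale. U2af1, which reads the AG at the intron's end, averaged 52.3, Prpf38b 37.9 and Sf3a3 34.2. U2af2, the U2AF subunit that binds the polypyrimidine tract, was the lowest member at 10.2, so that rounding to whole numbers limits what can be seen of it. The within-group SD over the members had a median of 0.30, against 0.32 for the rest of the table, and was widest for Snrpd3 at 0.59. The values of Snrpd3 ran from 0.64, a fractional value near 0, to 27.

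**Figure D1:**
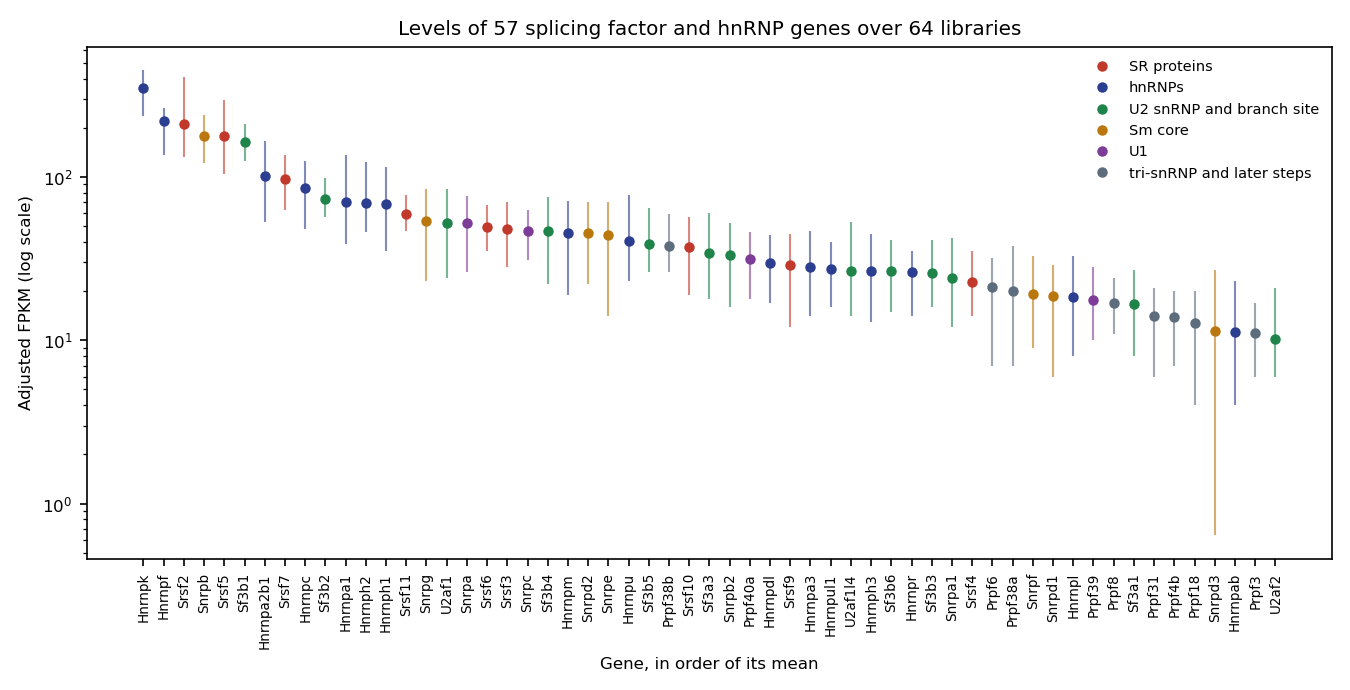
Level of each of the 57 genes, with the mean over 64 libraries as a point and the lowest to highest library as a line, on a logarithmic axis of adjusted FPKM and coloured by role. Hnrnpk at 351 and U2af2 at 10.2 mark the ends, and the tri-snRNP and later-step genes lie between 11.1 and 37.9.

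In 3-month females Hnrnpa1, Srsf5 and Hnrnph2 were higher and Snrpa and Hnrnph3 lower after LPS, 5 of 57 members. A gene was called when its limma p, adjusted over all genes, was under 0.05 and its fold exceeded 1.5. Over all genes tested, 6.16% were called higher and 5.08% lower in this comparison, so that 3 higher and 2 lower members are near the background. Without regard to the test, all LPS-treated values lay above all PBS-treated ones in 9 members (12.2% of all genes) and below them in 4 (21.7%). The median log2 fold change was 0.05 over the members and -0.14 over all genes, and 46 of 57 members lay above the median of all genes. In sorted bulk samples, fewer cells of a type and less RNA per cell cannot be told apart.

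Among the hnRNPs, Hnrnpa1 showed the largest difference. This abundant hnRNP binds exonic and intronic silencers and often counters SR proteins. Its level was 82, 108 and 91 adjusted FPKM in the LPS-treated 3-month females, against 40, 45, 49 and 48 in the PBS-treated ones. All LPS-treated libraries lay above all PBS-treated ones, and the log2 fold change was 1.02 (SE 0.20, 95% confidence interval 0.61 to 1.43, limma adjusted p = 0.00123), or 1.16 above the median of all genes. The call held under each of 19 alternatives, with adjusted p between 5.23e-05 and 0.0228. The looser thresholds among these could not have lost it. The mean of Hnrnpa1 was lowest in 3-month PBS-treated females, at 45.5, against 45.7 to 94.5 in the other PBS-treated groups. Hnrnph2, an hnRNP H protein that binds G-rich runs, was at 86, 98 and 90 after LPS and 58, 66, 61 and 53 after PBS, again without overlap. Its log2 fold change was 0.61 (SE 0.16, adjusted p = 0.0104). The call was lost without LPS replicate 2 (adjusted p = 0.0665), and without PBS replicate 4, where the log2 fold change of 0.56 lay under a fold of 1.5. It was also lost with a pseudocount of 5.

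Srsf5, an SR protein that binds exonic enhancers, was the SR gene that passed. It was at 294, 185 and 207 after LPS, against 120, 157, 139 and 146 after PBS. The groups did not overlap, but the highest value came from 1 library. The log2 fold change was 0.68 (SE 0.19, adjusted p = 0.0177), and without that library, LPS replicate 1, it was 0.48 with an adjusted p of 0.126. Without PBS replicate 1 the adjusted p was 0.0632. The other 8 SR genes did not pass, and the log2 fold changes of the 9 ranged between -0.22 and 0.68 with a median of 0.05.

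The promoters of Hnrnpa1 and Srsf5 are shown because these are the members called higher after LPS at 3 months for which the 250 bases before the RefSeq start hold no annotated exon of a coding gene. They are from RefSeq on GRCm38.p6, plus strand, at chr15:103240147-103240396 and chr12:80945249-80945498. The part of the Srsf5 window far from its start overlaps an exon of the non-coding Gm20337 on the other strand. Capitals mark CCAAT, the NF-Y box, and CCGGAAG, an ETS-type element, on either strand (ATTGG and CTTCCGG in reverse).
Hnrnpa1: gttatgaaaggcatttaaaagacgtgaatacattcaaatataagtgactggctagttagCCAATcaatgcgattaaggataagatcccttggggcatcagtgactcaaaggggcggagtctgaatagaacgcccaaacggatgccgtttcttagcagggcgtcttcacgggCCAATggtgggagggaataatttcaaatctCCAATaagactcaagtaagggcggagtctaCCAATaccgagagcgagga
Srsf5: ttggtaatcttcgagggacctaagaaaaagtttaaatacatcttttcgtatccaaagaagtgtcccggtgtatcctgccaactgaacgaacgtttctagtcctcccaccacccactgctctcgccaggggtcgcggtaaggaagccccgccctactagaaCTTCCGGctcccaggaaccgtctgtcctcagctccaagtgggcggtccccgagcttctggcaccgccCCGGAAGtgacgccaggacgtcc
The Hnrnpa1 window held 4 CCAAT and no CCGGAAG matches, and the Srsf5 window 2 CCGGAAG and no CCAAT matches. Of the 57 members 50 matched a promoter entry, and CCAAT was in 48% of them, against 36.3% for the rest of the table and 34.5% of all 27025 promoters of that length. CCGGAAG was in 28% of the members' promoters, against 16.8% and 7.05%. These matches describe the letters only.

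Both members that were lower after LPS in 3-month females were also lower at older ages in PBS-treated females, set against the same 3-month PBS-treated libraries. Snrpa encodes the A protein of the U1 particle, which binds a stem-loop of U1 snRNA. It was at 33, 35 and 51 after LPS and 68, 71, 62 and 64 after PBS, without overlap, with a log2 fold change of -0.75 (SE 0.19, adjusted p = 0.00952). Without LPS replicate 1 the adjusted p was 0.0546, and without LPS replicate 2 it was 0.0665. Hnrnph3, a shorter relative of the hnRNP H proteins, was at 30, 16 and 24 after LPS and 39, 40, 38 and 36 after PBS. Every LPS-treated library lay below every PBS-treated one, and the log2 fold change was -0.73 (SE 0.21, adjusted p = 0.0208). That call was lost without LPS replicate 2 (adjusted p = 0.199), without LPS replicate 3 (0.0542) and without PBS replicate 2 (0.0526).

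Leaving out LPS replicate 2 reduced the called members to Hnrnpa1 and Srsf5, 2 in all. With the libraries scaled by their median ratio, which lifts the median of all genes by 0.10, 5 members were called higher (Hnrnpa1, Srsf5, Hnrnph2, Prpf38a and U2af1) and 1 lower (Snrpa), against 3 and 2 unscaled. So scaled, 7.88% of all genes were called higher and 2.53% lower, and the members' counts were near these shares. With the 2 PBS-treated 3-month females of highest neutrophil marker sum left out, an alternative chosen after seeing the data, 1 member, Hnrnpa1, was called. Exons of Snrpa and Hnrnph3 overlap those of BC024978 and Rufy2 on the opposite strand, and without strand information reads of such pairs cannot be told apart.

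**Figure D2:**
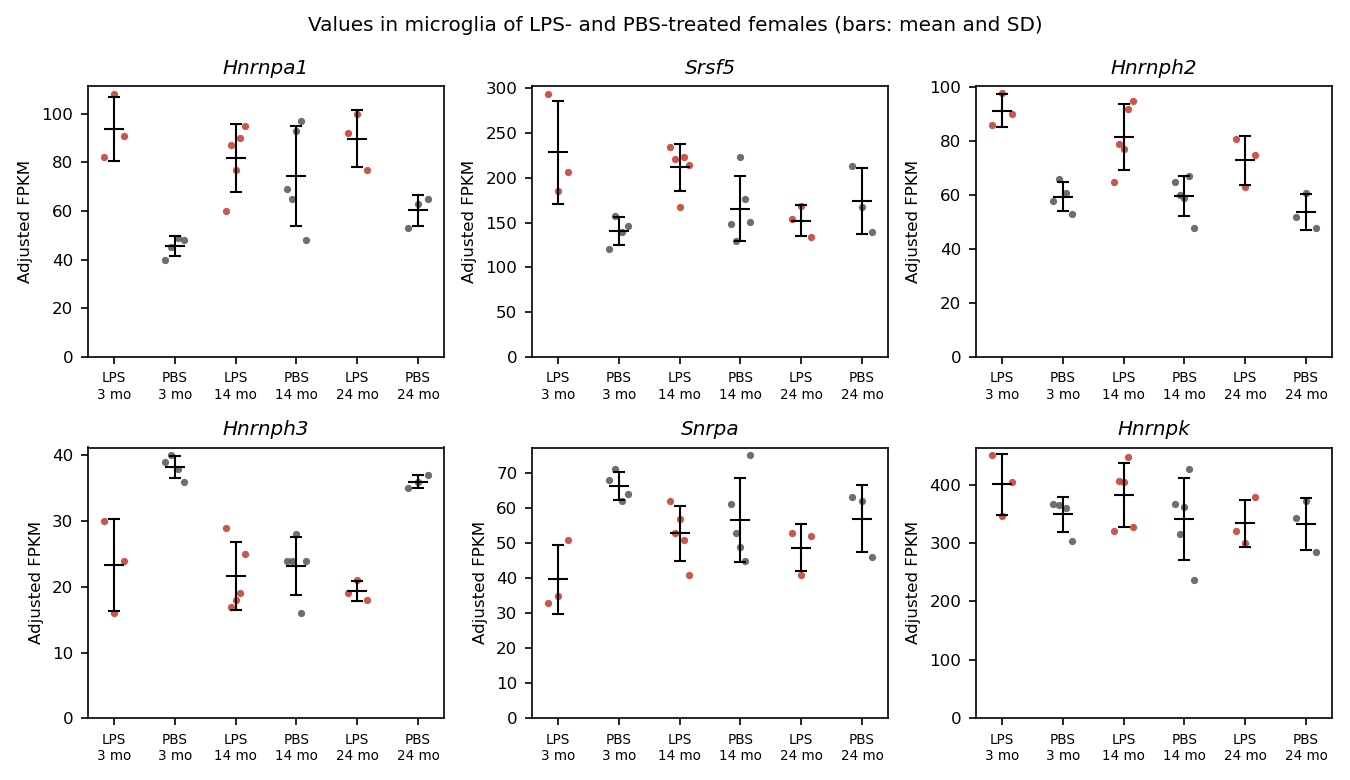
Adjusted FPKM of 6 members in LPS-treated and PBS-treated females of 3, 14 and 24 months, 1 point per mouse, with bars for the mean and SD. At 3 months the LPS and PBS points of Hnrnpa1, Srsf5, Hnrnph2, Hnrnph3 and Snrpa do not overlap, at 24 months those of Hnrnph3 lie at 18 to 21 against 35 to 37, and Hnrnpk is shown as the highest member.

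At 14 months no member passed between LPS-treated and PBS-treated females, against 1.81% of all genes in either direction. At an unadjusted p under 0.05, 11 of 57 members differed, against 15.7% of all genes. Hnrnpa1 was at 60, 87, 77, 90 and 95 after LPS and 69, 65, 93, 97 and 48 after PBS, and Hnrnph3 at 29, 17, 18, 19 and 25 after LPS and 24, 24, 28, 16 and 24 after PBS, both with full overlap. Of the 57 members 55 had a confidence interval within a fold of 2 either way and 34 within a fold of 1.5. The members' median was 0.14 and that of all genes 0.02.

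At 24 months 1 member, Hnrnph3, was lower after LPS, and 5.44% of all genes were. Hnrnph3 was at 19, 21 and 18 after LPS and 35, 36 and 37 after PBS. The groups were far apart relative to their spread, at 19.3 ± 1.53 and 36 ± 1 (SD, n = 3 each), with a log2 fold change of -0.87 (SE 0.22, adjusted p = 0.0173). The adjusted p rose to between 0.0506 and 0.0525 without LPS replicate 1, PBS replicate 1 or PBS replicate 2. Fitting the 24-month groups alone gave 0.0651. No member was called higher, against 4.27% of all genes. The groups did not overlap in 8 members with higher values after LPS (9.28% of all genes) and in 6 with lower ones (17.2%).

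The 24-month comparison depended on scaling, as the median of all genes was -0.15. With median-ratio scaling 5 members were called higher and Hnrnph3 remained the 1 called lower, and with equal library totals 7 were higher and 1 lower. The shares of all genes were 6.48% higher and 2.64% lower with median-ratio scaling, and 7.37% and 1.88% with equal totals. The 5 were Hnrnpa1, Hnrnpu, Hnrnpab, Prpf38a and Srsf3, named here after their values were seen. Hnrnpu, the nuclear matrix protein SAF-A, was at 53, 40 and 63 after LPS and 31 in each PBS-treated library. Prpf38a, a B-complex protein, was at 28, 21 and 22 after LPS and 14, 18 and 11 after PBS. Their unscaled log2 fold changes were 0.70 (adjusted p = 0.0709 and 0.0533), just outside the threshold. Hnrnpab had the largest unscaled rise of all members, 1.02, also without passing. It was at 12 to 20 after LPS and 4 to 10 after PBS, levels where rounding matters. All 8 tri-snRNP and later-step genes had a fold change above 0 and above the median of all genes. Of 7 Sm core genes 1 was above 0 and 3 were above that median, and none of these 15 passed. The split by sign was not seen at the other ages, with 3 of 8 and 6 of 7 above 0 at 3 months and 5 of 8 and 5 of 7 at 14 months. These role groups are singled out here after the values of all role groups were seen. T and NK cell marker sums were 28 to 82 after LPS and 183 to 285 after PBS, and B and plasma cell ones 59 to 76 and 85 to 186. Those of immediate early genes were 4858 to 5506 and 7815 to 8961. The part of these differences was not tested.

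The response to LPS was also compared between ages. No member passed a test of the difference at 14 minus 3 months, where 0.301% of all genes did, or at 24 minus 3 months, where 0% did. For Hnrnpa1 the difference at 14 minus 3 months was -0.86 (95% confidence interval -1.39 to -0.32, adjusted p = 0.179). For Srsf5 it was -0.85 at 24 minus 3 months (-1.42 to -0.28, adjusted p = 0.221), where Srsf5 was at 154, 169 and 134 after LPS and 213, 168 and 140 after PBS. With p left unadjusted (under 0.05) and the same fold, 4 members differed at 14 and 2 at 24 months, against 8.04% and 10.2% of all genes.

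The summed level of the 57 genes took 0.726% to 0.765% of the library sum in LPS-treated and 0.601% to 0.647% in PBS-treated 3-month females. At 14 months it was 0.700% to 0.748% after LPS and 0.654% to 0.703% after PBS, and at 24 months 0.633% to 0.746% after LPS and 0.577% to 0.600% after PBS. These shares were apart at 3 and 24 months and overlapped at 14 months. Before division, the member sums at 3 months were 3425 to 3608 after LPS and 3047 to 3209 after PBS. At 24 months they were 3089 to 3473 and 2952 to 3329, with overlap. The library sums were lower after LPS, at 466753 to 478923 against 496013 to 516571 at 3 months. At 24 months they were 465657 to 488306 after LPS and 511391 to 554459 after PBS. In PBS-treated males the share lay between 0.555% and 0.814%. The 6 highest members, Hnrnpk, Hnrnpf, Srsf2, Snrpb, Srsf5 and Sf3b1, made up 40.8% of the sum by their means.

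**Figure D3:**
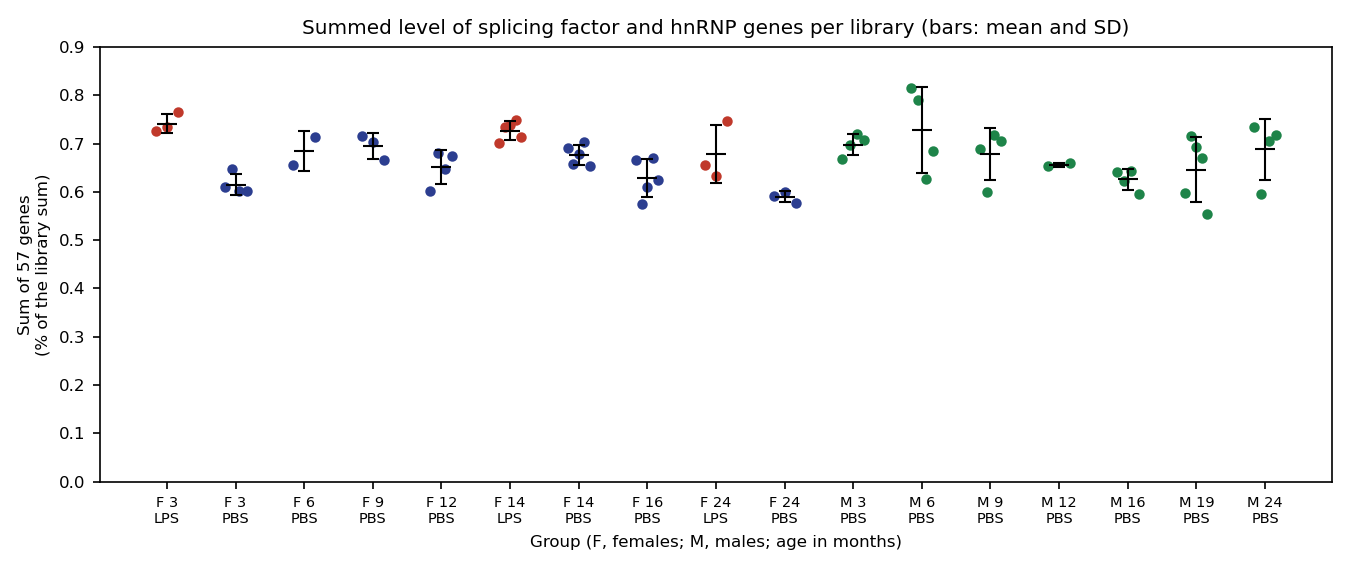
Sum of the 57 genes as a percent of each library's sum, 1 point per mouse, with bars for the mean and SD, by sex, age and treatment. LPS-treated 3-month females lie at 0.726% to 0.765%, above the 0.601% to 0.647% of PBS-treated ones, and males at 6 months spread over 0.626% to 0.814%.

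Across age in PBS-treated females, Hnrnph3 was the member with the clearest course. It was at 39, 40, 38 and 36 adjusted FPKM at 3 months, 25 and 43 at 6 months, and 35, 33 and 41 at 9 months. At 12 months it was at 18, 25, 32 and 25, at 14 months at 24, 24, 28, 16 and 24, and at 16 months at 22, 15, 20, 22 and 21. At 24 months it was at 35, 36 and 37, within 0.08 log2 units of the 3-month level and with an interval of -0.50 to 0.33. The level was thus lower at 12, 14 and 16 months, where every library lay below every 3-month library, and not at 24 months. Such a lack of overlap on the lower side was found in 8 members at 12 months (16% of all genes), 2 at 14 months (11.6%) and 7 at 16 months (14%).

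The log2 fold changes of Hnrnph3 against 3 months were -0.62 at 12 months (SE 0.19, adjusted p = 0.0351), -0.72 at 14 months (SE 0.18, adjusted p = 0.0247) and -0.91 at 16 months (SE 0.18, adjusted p = 0.00204). The test across all 7 ages gave an adjusted p of 0.00311. The calls at 16 months and across ages held under each alternative tried (20 and 35), of which the looser thresholds could not lose them. Those at 12 and 14 months were lost under median-ratio scaling (-0.43 and -0.55, adjusted p = 0.177 and 0.0887), without any 1 of the 3-month libraries (adjusted p between 0.0617 and 0.0914), and without several of the older ones: at 12 months without replicate 1 (0.125), replicate 2 (0.0547) or replicate 4, and at 14 months without replicate 4 (0.0695). Equal totals also lost the calls at 12 and 14 months, and a pseudocount of 5 lost that at 12 months. Relative to the median of all genes, the changes at 12, 14 and 16 months were -0.43, -0.53 and -0.74. These comparisons share the 3-month females.

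In males Hnrnph3 did not pass at any age. At 16 months it was at 16, 17, 18 and 16, below the 20, 35, 45 and 22 at 3 months in every library, with a log2 fold change of -0.75 and an adjusted p of 0.145. The 3-month males alone spanned 20 to 45. At 16 months in males, 4 members lay below the 3-month values in every library (6.06% of all genes) and 2 above them (7.7%).

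At 12 months 3 members were lower in females, Hnrnph3, Snrpa and Snrpb2, and 7.76% of all genes were, so that 3 of 57 (5.26%) is near the background. Neutrophil marker sums were 1822 to 5169 at 12 months and 2152 to 6374 at 14 months, and microglial ones 13545 to 15477 and 15036 to 17137, all without overlap with the 3-month sums given above, and their part was not tested. Snrpa was at 60, 45, 26 and 40 at 12 months and 68, 71, 62 and 64 at 3 months (log2 fold change -0.68, SE 0.19, adjusted p = 0.0250). Snrpb2, the U2B'' protein of the U2 particle, was at 21, 32, 16 and 29 at 12 months and 37, 52, 35 and 39 at 3 months (-0.74, SE 0.22, adjusted p = 0.0329). Neither group pair overlapped, and the lowest value of both genes came from 12-month replicate 3. Without it the adjusted p was 0.0892 for Snrpa and 0.105 for Snrpb2. With median-ratio scaling none of these 3 was called (1.81% of all genes lower), and Hnrnpl was called higher (2.16%), at 20, 20, 26 and 22 at 12 months and 14, 12, 15 and 15 at 3 months. The count of called members was 0 without 3-month replicate 1, 2 or 4, and 1 (Snrpa) without 3-month replicate 3 or 12-month replicate 1.

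Elsewhere in females, Hnrnph3 was the 1 member lower at 14 months (2.11% of all genes) and at 16 months (6% of all genes), and none was higher (1.2% and 3.01%). At 14 months the count was 2 without replicate 5 of that age, which added Hnrnpa1. No member passed at 6 months (0.301% of all genes either way), at 9 months (2.66%) or at 24 months (2.09%). With p left unadjusted (under 0.05) and the same fold, the counts were 3, 1 and 4, against 8.15%, 12.7% and 10.9% of all genes. Hnrnpa1 tended the other way from Hnrnph3 without passing, at 79, 59, 73, 66 and 67 at 16 months against 40, 45, 49 and 48 at 3 months (log2 fold change 0.58, adjusted p = 0.0670). With median-ratio scaling it passed at 14 and 16 months (0.83 and 0.74, adjusted p = 0.0240 and 0.0212), where 2.16% and 5.05% of all genes were higher. Microglial marker sums were 13265 to 17801 at 16 months and 21782 to 23399 at 3 months, without overlap, and all 16-month female libraries lack the values between 0 and 1 that all 3-month female libraries have, so that age and whatever set that difference cannot be told apart there.

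U2af2 was the other member that passed the test across female ages (adjusted p = 0.0418, against 14.8% of all genes called), with its highest level at 9 months. It was at 7, 8, 6 and 11 at 3 months, 13 and 14 at 6 months, 21, 15 and 11 at 9 months, and 7, 8, 8, 7 and 7 at 16 months. The 9-month and 3-month values touch at 11, and the log2 fold change between them was 0.87 (SE 0.25, adjusted p = 0.0509). The call across ages was lost in 16 of 35 alternatives, 14 of them leaving out a single library. Without 9-month replicate 1, the library at 21 and the one least like its own group, the adjusted p was 0.0956, and the other 13 gave values between 0.0519 and 0.0713.

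**Figure D4:**
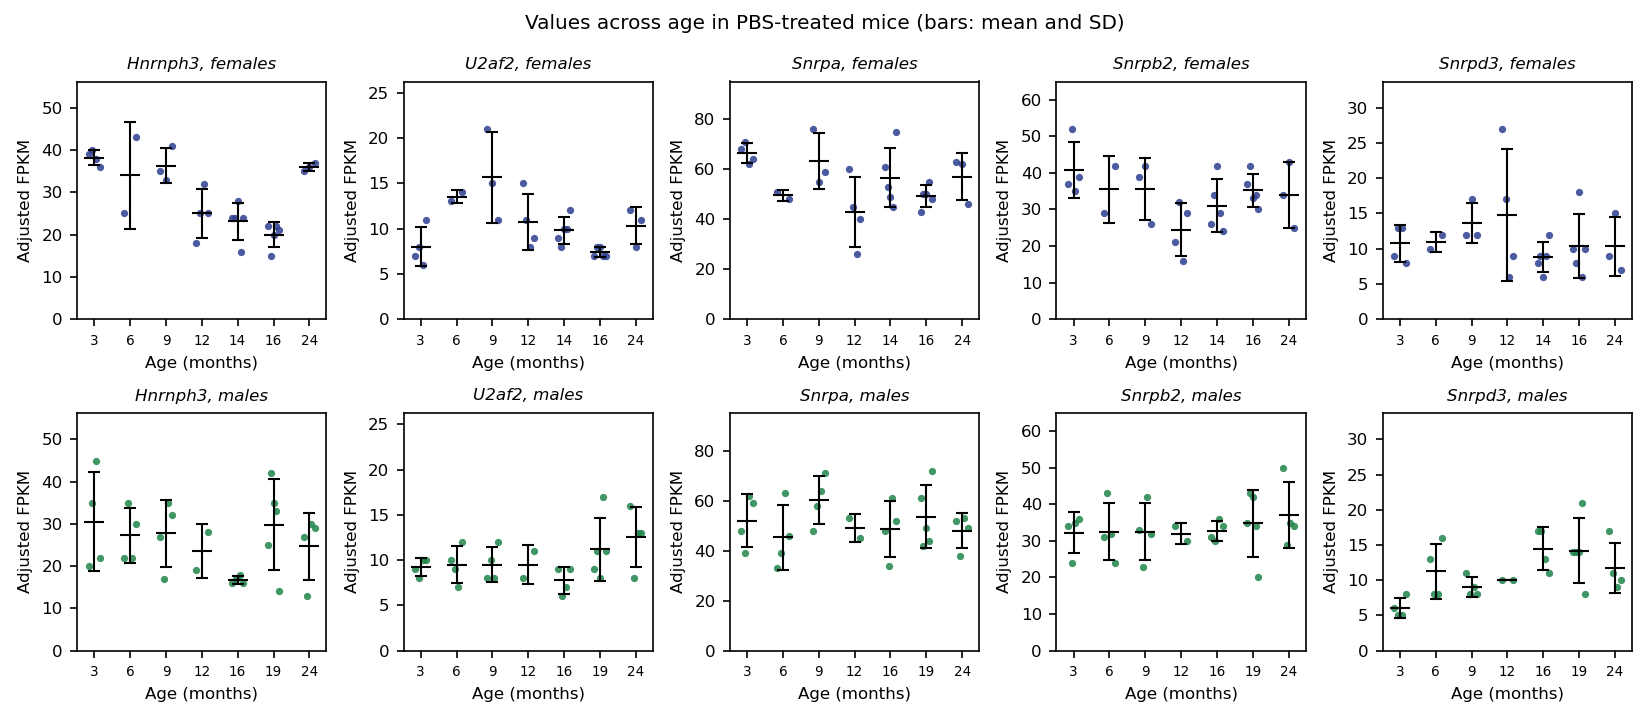
Adjusted FPKM of Hnrnph3, U2af2, Snrpa, Snrpb2 and Snrpd3 by age in months in PBS-treated females and males, 1 point per mouse, with bars for the mean and SD. Hnrnph3 in females lies at 15 to 22 at 16 months against 36 to 40 at 3 months, and Snrpd3 in males at 11 to 17 at 16 months against 5 to 8 at 3 months.

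In PBS-treated males Snrpd3 was the 1 member called, higher at 16 and 19 months than at 3 months. It encodes an Sm protein of the ring that is assembled on U1, U2, U4 and U5 snRNA. It was at 6, 5, 5 and 8 at 3 months, 13, 8, 8 and 16 at 6 months, 11, 8, 9 and 8 at 9 months, and 10 and 10 at 12 months. At 16 months it was at 17, 17, 13 and 11, at 19 months at 14, 14, 14, 21 and 8, and at 24 months at 17, 11, 9 and 10. The 3-month libraries were the lowest group by mean, and the 16-month libraries did not overlap with them.

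The log2 fold changes of Snrpd3 were 1.15 at 16 months (SE 0.25, adjusted p = 0.00331) and 1.08 at 19 months (SE 0.24, adjusted p = 0.00586), and 0.85 at 24 months without passing (adjusted p = 0.0634). The call at 16 months held under each of 19 alternatives, of which the looser thresholds could not lose it. Within the male libraries that have no values between 0 and 1 the change at 19 months was 1.16 with an adjusted p of 0.0805. The test across ages (adjusted p = 0.0200) was lost without 3-month replicate 2 (0.0663) or 3 (0.0681). Over all genes 4.52% were higher at 16 months, 2.74% at 19 months and 8.36% changed in either direction across ages. Neutrophil marker sums were 2709 to 4608 at 3 months, 9064 to 32028 at 16 months and 7130 to 13314 at 19 months, and microglial ones 19742 to 22235, 13289 to 15885 and 13707 to 18058 at these ages. T and NK cell sums were 16 to 31, 115 to 173 and 16 to 104 at the same ages. The part of these marker differences was not tested. Exons of Snrpd3 overlap those of Gucd1 on the opposite strand.

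Snrpd3 in females was at 10, 8, 18, 6 and 10 at 16 months and 9, 13, 13 and 8 at 3 months, and its fold change at 24 against 3 months differed between females and males by -0.93 (interval -1.85 to -0.02, adjusted p = 0.572). No member passed that test of the sexes' difference, where 0.0177% of all genes did in either direction. The other 6 Sm core genes did not pass at any male age. No member passed in males at 6 months (0% of all genes either way), 9 months (0.0354%), 12 months (0.903%) or 24 months (2.85%). With p left unadjusted (under 0.05) and the same fold, the counts were 2 at 6 months, 2 at 12 months and 1 at 24 months, against 3.21%, 8.48% and 7.05% of all genes.

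Of the 57 members 8 were called in at least 1 test and 49 in none. The share of all genes called in at least 1 test was not computed, so that this count has no background. At 24 against 3 months, 50 of 57 members in females and 55 in males had a confidence interval within a fold of 2 either way, and 17 and 33 within a fold of 1.5. Hnrnpk was at 343, 371 and 284 in 24-month females and 367, 365, 359 and 304 in 3-month females, and Sf3b1 at 151, 143 and 174 in 24-month females and 186, 183, 184 and 161 in 3-month females.

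**Figure D5:**
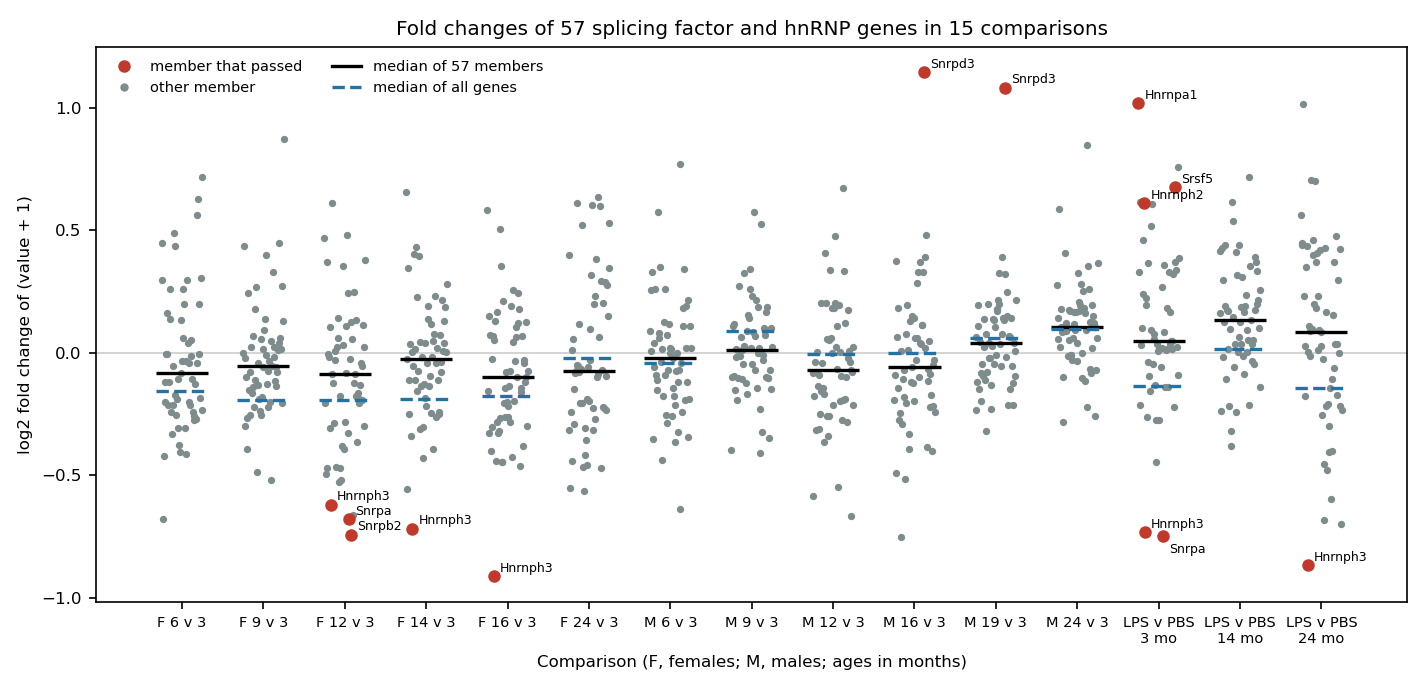
Log2 fold change of (value + 1) of each of the 57 genes in 15 comparisons, with members that passed in red and named, and the medians of the members and of all genes as solid and dashed lines. Hnrnph3 passed below 0 in 5 comparisons and Snrpd3 above 0 in 2, and Hnrnpa1 at 1.02 is the largest change that passed after LPS.

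Of 94 other splicing genes listed, 84 were measured. Among 26 other RNA-binding regulators, Rbm3, a cold-inducible RNA-binding protein, was higher after LPS in 3-month females, at 74 to 97 against 26 to 30 after PBS (log2 fold change 1.59, limma adjusted p = 0.000377). It did not pass after LPS at the other ages. Its values there overlapped, at 64 to 94 after LPS and 35 to 107 after PBS at 14 months, and 45 to 75 and 58 to 106 at 24 months. In PBS-treated females Rbm3 was also higher at 12 months, at 55 to 80, and at 16 and 24 months, by 0.86 and 1.29, than the same 26 to 30 at 3 months. Tia1, which binds U-rich sequence next to weak splice sites, was lower at 12, 14 and 16 months (-1.35, -1.27 and -0.79), at 7 to 12 at 12 months against 23 to 26 at 3 months. Qk, a STAR-family splicing regulator, was lower at 12, 16 and 24 months in females (-0.74, -0.69 and -0.96) and at 16 months in males (-0.81). With median-ratio scaling the 16-month call of Tia1 (-0.63) and the 12- and 16-month calls of Qk (-0.54 and -0.52) were lost. Of all 84, 2 were higher and 8 lower at 12 months in females, 1 and 3 at 16 months, and 1 and 1 at 24 months. The 9.52% lower at 12 months was near the 7.76% of all genes, and at 16 months 3.57% were lower, against 6% of all genes. With median-ratio scaling the counts at 12 months were 2 higher and 3 lower.

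Of 6 kinases of SR proteins measured, Clk1 was lower at 12 months, at 75 to 121 against 165 to 220 at 3 months (-0.97, adjusted p = 0.00810). Srpk2 was lower at 9 and 14 months (-0.80 and -0.66) and after LPS at 3 months (-0.84), and all 3 of these calls were lost with median-ratio scaling, whereas that of Clk1 held. At each of these 4 comparisons 1 kinase of 6 was lower, against 2.32% of all genes at 9 months and the shares given above at 12 and 14 months and after LPS. At 3 months LPS gave 1 higher and 2 lower of the 84 genes (3 and 0 with median-ratio scaling), and at 24 months 5 higher and 1 lower (7 and 0), that is 5.95% higher against 4.27% of all genes. Of 12 SR-related genes 3 were higher at 24 months, Tra2a (0.96), Luc7l2 (0.84) and Son (0.66). Son, named after its values were seen, was at 128 to 142 after LPS and 73 to 110 after PBS. Eftud2, the GTPase of the U5 particle, was lower (-0.69), a call that was lost with median-ratio scaling. At 14 months Snrnp70, the U1 70K protein, was higher after LPS, at 39 to 48 against 18 to 39 after PBS (0.75, adjusted p = 0.0218).

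In the GENCODE vM21 annotation 30 of the 57 members (52.6%) have a transcript marked for nonsense-mediated decay, against 31.3% of the rest of the table, with 8 of 9 SR genes (88.9%) and 8 of 16 hnRNP genes (50%). Hnrnpa1, on chromosome 15 from 103240432 to 103246692, has 2 such transcripts of 5, and Hnrnph3, on chromosome 10 from 63014664 to 63024217, 1 of 6. The values are summed per gene, so that productive and decay-prone forms were not separated.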

How the data were processed

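Microglial RNA was reverse transcribed with oligo-dT primers and sequenced without strand marking. Reads were cleaned with SOAPnuke and aligned by the authors using HISAT2 2.0.4 (mm10) and Bowtie2 2.2.5 (coding genes). RSEM 1.2.12 gave FPKM, ComBat_seq was used to adjust for batch, and genes averaging under 10 were dropped. The deposited values are therefore a score, FPKM after batch adjustment and rounding, on which no count test was run. Of them 297 are fractional. The batches were not named in the sources used here, and depth is unknown, so that no within-batch value or counting interval was computed.

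Values were tested as log2(value + 1) with limma 3.58.1 (R 4.3.3), with a trend and no scaling, in 1 fit each over females by age, males by age, females with LPS or PBS, and both sexes at shared ages. P-values were adjusted by Benjamini-Hochberg over all 5647 genes, and calls needed a p so adjusted of less than 0.05 together with a fold above 1.5. Fold changes are on that log2 scale and understate the change of low genes. The count test used by the study was not used, since rounded FPKM are not reads. The script was tested on simulated data. Members named are those called, the highest of each family and up to 4 called related genes per comparison; others are named as chosen after their values were seen. Members, lists and tests were chosen with earlier results of these data known. Alternatives were other pseudocounts (0.5 and 5), a mean of at least 50, median-ratio scaling, equal totals, no trend, robust fits, a replicate block, other thresholds, compared groups alone and leaving out each library. Nothing in the labels says more than that libraries are separate mice. Annotation and promoters came from GENCODE vM21 and RefSeq on GRCm38.p6. Other assays of the study were not used here.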

Additional observations from a re-analysis of the deposited data

Results flagged for a closer look

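For the 15 members named by rule, each group of 4 or 5 mice was checked for a library far from the others, and 9 of 165 gene and group pairs had one, where chance gives about 1 in 20. In 3-month PBS-treated females, Hnrnpk was 304 in replicate 4 (359 to 367 in the others), Sf3b1 was 161 in the same replicate (183 to 186), and Snrpb was 158 in replicate 3 (177 to 180). In 12-month females Snrpb was 235 in replicate 1 (171 to 180). In 16-month females Hnrnph3 was 15 in replicate 2 (20 to 22) and Sf3a3 was 26 in replicate 4 (31 to 33). In males Snrpb2 was 24 in replicate 2 at 3 months (34 to 36), Hnrnph2 was 54 in replicate 2 at 16 months (69 to 72), and U2af1 was 24 in replicate 5 at 19 months (60 to 67). The call of Hnrnph3 at 16 months held without replicate 2, and the other genes were not called in comparisons with those groups.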

How the results depend on the processing

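No called member reversed its direction under any alternative run. The number of called members in females at 12, 14 and 16 months was 3, 1 and 1 as reported, 1, 1 and 2 with median-ratio scaling or equal totals. At 9 months it was 0 as reported and 1 with either scaling, a pseudocount of 5 or no trend. Across female ages it was 2, and 4 with median-ratio scaling. For males equal totals gave 2 at 16 months and 2 across ages, where 1 was reported. After LPS at 24 months 1 was reported, 6 were called with median-ratio scaling, 8 with equal totals and 0 when the compared groups were fitted alone. A mean of at least 50 leaves out most members and gave 1 at 12 and 0 at 16 months in females, 0 across ages in either sex, 0 at 16 and 19 months in males, and 0 after LPS at 24 months. Compared groups alone gave 2 in females at 6, 14 and 24 months. The adjusted p alone gave 2 at 16 months in females, 2 across male ages and 2 after LPS at 24 months. An unadjusted p gave 3, 1, 5, 2 and 4 in females at 6, 9, 12, 14 and 24 months, 2, 2, 2 and 1 in males at 6, 12, 16 and 24 months, 1 and 6 after LPS at 14 and 24 months, 4 and 2 for the differences of the LPS response at 14 and 24 months, and 3 for that between the sexes. Male libraries without values between 0 and 1 gave 0 at 19 months and 0 across ages. Without the 2 females of high neutrophil markers (chosen after seeing the data) the counts were 1 after LPS at 3 months, 0 at 12 and 14 months and 1 across ages. For the settings in this section, shares of all genes are given above for some comparisons only. These shares move with the setting too, and at an unadjusted p were 8.15%, 12.7% and 10.9% in females at 6, 9 and 24 months. Without such a share, a count shows only how the calls moved.

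Same-numbered mice showed no shared deviation at the median, with a correlation of 4.26e-05 in females, -0.0044 in males and 0.014 in the LPS fit. Single pairs ranged from -0.246 to 0.224, -0.324 to 0.396 and -0.193 to 0.214. These pairs and the replicate block use the numbers of the sample titles. The authors' own library labels number some groups otherwise, and pairs by those numbers were not checked. The replicate block gave 2 called members at 14 and at 16 months in females, 1 across female ages, and 1 at 24 months in males. Leaving out single libraries gave 0 to 1 at 9, 0 to 3 at 12, 0 to 2 at 14 and 1 to 4 across ages in females, 1 to 2 at 16 months and 0 to 1 across ages in males, and 2 to 5 and 0 to 3 after LPS at 3 and 24 months, and other counts did not move. Where this left 1 mouse (6-month females, 12-month males), that mouse was assumed to vary like the other groups.

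Depth is unknown, and rounding to whole numbers limits members near 10, such as U2af2 and Snrpd3. With groups of 2 to 5 mice, between 13 and 36 of 57 members had a confidence interval within a fold of 1.5 either way in the 15 comparisons.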

Other observations

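Some splicing genes outside the 57 changed in comparisons where few members did, and are named here after their values were seen. At 12 months in females Snrnp27, a protein of the U4/U6.U5 particle, was at 18 to 27 adjusted FPKM, against 40 to 54 at 3 months (log2 fold change -0.91, limma adjusted p = 0.00893). Ddx5, an RNA helicase that works with splicing factors, was at 395 to 536 against 650 to 739 (-0.59, adjusted p = 0.0130). Rnps1, an SR-related protein of the exon junction complex, was higher, at 55 to 75 against 35 to 48 (0.67, adjusted p = 0.00812). With median-ratio scaling the changes were -0.72 for Snrnp27, -0.40 for Ddx5 and 0.87 for Rnps1. The call of Ddx5 was then lost, and those of Snrnp27 and Rnps1 held.

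After LPS, Lsm10, a protein of the U7 particle that processes histone mRNA, was lower in 3-month females, at 41 to 45 against 66 to 72 after PBS (-0.67, adjusted p = 0.0175). With median-ratio scaling its change was -0.56 and the call was lost. At 24 months Syncrip, also called hnRNP Q, was at 21 to 28 after LPS and 14 to 16 after PBS (0.69, adjusted p = 0.0403), and Pcbp2, a poly(C)-binding relative of Hnrnpk, at 52 to 76 and 25 to 45 (0.71, adjusted p = 0.0382). In males Khdrbs1, the RNA-binding protein Sam68, was at 21 to 30 at 24 months and 15 to 22 at 3 months (0.59, adjusted p = 0.0378). With median-ratio scaling its change was 0.50 and the call was lost.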
